A study of Mus musculus with 6 samples.

Results

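The genes in view are the potassium channel genes of the mouse, taken as every gene symbol in the expression table that begins with Kcn, goes on with a family letter or letters and then has a number. The rule found 92 of the 25572 genes in the table. It grouped them by family letter into 38 pore subunits of voltage-gated channels, 12 auxiliary subunits of those channels, 15 inward rectifiers, 12 tandem-pore channels, 12 genes of calcium- or sodium-activated channels and 3 noncoding genes at a channel locus. RNA was measured in hind limb skeletal muscle of 3 HDCKO mice, labelled Hdc-/-, and of 3 WT mice; Hdc encodes the enzyme that makes histamine. All 6 muscles carry the label HLI, which the series title gives as hindlimb ischemia, and were taken 3 days after surgery. Each mouse gave 1 library. No muscle without surgery was analysed here, so each difference below is one between genotypes in operated muscle. The labels do not state age, sex, strain or which leg was sampled.

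Potassium channels let potassium leave a cell and so pull its membrane potential toward rest. In a muscle fibre the voltage-gated channels end the action potential, inward rectifiers of the Kcnj2 and Kcnj12 kind hold the resting potential in the surface membrane and transverse tubules, and ATP-sensitive channels built from Kcnj11 open when the fibre runs short of energy. Vascular smooth muscle, nerve, and immune cells such as T cells and macrophages use other members of the same families, and bulk muscle RNA holds all of these cells at once. In such samples fewer cells of a type and less RNA per cell cannot be told apart.

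What most pore subunits share is a short stretch that lines the pore and selects potassium over sodium, and its codons can be read from the genome. The search was for 5 codons in a row, in frame on the coding strand of the longest annotated coding sequence: one for threonine, any with T as its middle base, one for glycine, any beginning with T, and one for glycine. This run was found in 186 of 21499 mouse coding genes, or 0.865%. The run was present in 31 of the 38 voltage-gated pore genes, the exceptions being 7 of the Kcnh family, and in 14 of the 15 inward rectifiers. Of the 12 tandem-pore genes, 10 held it and 9 of these held it more than once. Of the 8 pore genes of calcium- or sodium-activated channels, 5 held it. None of the 12 auxiliary subunits of voltage-gated channels and none of the 4 Kcnmb auxiliary subunits of the large-conductance calcium-activated channel held it. A missing match says only that these letters are absent from that frame. The stretches below come from 3 genes that rose in HDCKO muscle, 2 that fell and 1 that was not called. All were picked from genes that held the run, so the likeness of their capitals was set by the search. They are in GRCm39, 5′ to 3′ on the gene's strand, with the run of codons in capitals.
Kcna7, chr7:45058870-45058914, plus strand, exon 2 of 2: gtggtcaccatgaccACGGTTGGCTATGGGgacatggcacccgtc
Kcnc1, chr7:46077382-46077426, plus strand, exon 2 of 4: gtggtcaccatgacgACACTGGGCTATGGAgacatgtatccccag
Kcnj11, chr7:45748905-45748949, minus strand, exon 1 of 1: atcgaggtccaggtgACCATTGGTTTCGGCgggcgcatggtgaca
Kcnj8, chr6:142512159-142512203, minus strand, exon 3 of 3: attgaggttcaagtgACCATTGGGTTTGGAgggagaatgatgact
Kcnj15, chr16:95096824-95096868, plus strand, exon 4 of 4: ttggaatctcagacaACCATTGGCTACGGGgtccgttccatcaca
Kcnk13, chr12:100027620-100027664, plus strand, exon 3 of 3: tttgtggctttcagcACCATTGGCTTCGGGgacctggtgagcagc

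The levels are FPKM, fragments scaled to transcript length and to library size, so genes can be compared within a library. The table gives no counts, and the spacing of its low values put the libraries at about 29500000 to 37600000 fragments in HDCKO mice and 31900000 to 37100000 in WT mice. Hdc itself stood at 1.22, 2.46 and 2.52 FPKM in HDCKO muscle, against 7.49, 7.72 and 8.17 FPKM in WT muscle, so it was lower but not at 0, with a log2 change of -1.74 (SE 0.25, adjusted p = 0.0033). The groups differed far beyond these genes: of all genes tested, 17.8% were higher and 42.6% lower at an adjusted p under 0.05. Fibre and neutrophil markers moved beyond those shares, whereas the counts of macrophage and fibroblast markers that fell are near or under the lower share. All 14 fibre markers rose, with summed levels of 54969 to 100901 FPKM in HDCKO muscle against 480 to 1814 FPKM in WT muscle. All 10 neutrophil markers fell, with sums of 33.0 to 76.0 FPKM in HDCKO muscle against 2510 to 14592 FPKM in WT muscle. Macrophage markers summed to 284, 840 and 2069 FPKM in HDCKO muscle, against 2221 to 2816 FPKM in WT muscle, and 5 of 10 fell. Lyz2, which was not called, held most of each sum, at 174, 494 and 1457 FPKM in HDCKO mice. Of the markers of vessels, 6 of 10 endothelial genes fell (207 to 292 FPKM in HDCKO muscle, 387 to 560 in WT), while 3 mural genes rose and 1 fell of 10. The mural sums were 1266 to 1653 FPKM in HDCKO muscle and 250 to 316 FPKM in WT muscle, but Des, which muscle fibres also express, holds most of the HDCKO sum. Without Des, left out after its values were seen, they were 318 to 379 FPKM in HDCKO muscle and 210.4 to 287 FPKM in WT muscle, with 2 genes higher, Rgs5 and Abcc9, and 1 lower of 9. Abcc9, which muscle also uses, is on the list of channel partners below as well. Among 11 genes of regenerating muscle 3 rose, Myog, Myf6 and Myh8 (109 to 235 FPKM in HDCKO muscle, 12.1 to 47.2 in WT, where Myh3 was at 0 in at least 1 library). Myf6 alone was at 66.4, 68.3 and 49.5 FPKM in HDCKO mice 1, 2 and 3, most of the sum in HDCKO 1 and HDCKO 2. It was at 10.8, 3.68 and 1.76 FPKM in WT mice. Of the genes not called, Pax7, Myod1 and Myf5 among them, only Chrna1 and Chrnd had groups apart. Among 10 fibroblast genes 3 fell (1292 to 2101 FPKM in HDCKO muscle, 2574 to 4871 in WT). Of 8 Schwann cell and axon genes tested 2 rose and 1 fell (252 to 317 FPKM in HDCKO muscle, where Nefl and Nefm were at 0 in at least 1 library, and 134 to 242 in WT). No T and B cell marker and no adipocyte marker was called, although T and B cell markers summed to 0.669, 99.9 and 241 FPKM in the HDCKO mice, where Cd8a was at 0 in at least 1 library, and to 2.14 to 4.20 FPKM in WT mice. Adipocyte sums overlapped, at 788 to 2845 FPKM in HDCKO muscle and 1261 to 2628 FPKM in WT muscle. No marker of these 10 cell type lists was at 0 in a whole group, and the part of cell makeup in the channel results was not tested.

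Of the 92 channel genes, 32 averaged at least 0.5 FPKM over the 6 libraries and were tested. In limma, on log2(FPKM + 0.5) with Benjamini-Hochberg adjustment over all 13288 genes tested, 13 rose in HDCKO muscle, 7 fell and 12 were not called at an adjusted p of 0.05. That is 40.6% higher and 21.9% lower, where 17.8% of all genes tested were higher, 42.6% were lower and 60.4% were called in either direction. All HDCKO mice were above all WT mice for the 13 and also for Kcna2, and below them for the 7 and also for Kcnab2. Of all genes tested, 21.2% had HDCKO wholly above WT and 51.4% wholly below. The median log2 change of the 32 was 0.01 and that of all genes tested was -0.50. The filter shapes these counts: 11 of the 13 genes that rose had a WT mean under 0.5 FPKM, and 3 of the 7 that fell had an HDCKO mean under it, so they passed only through the group where they were high. Within the tested genes, 8 of 14 voltage-gated pore genes rose and 2 fell, 1 of 5 auxiliary genes rose and 2 fell, 2 of 5 inward rectifiers rose and 1 fell, none of 5 tandem-pore genes rose and 2 fell, and 2 of 3 calcium-activated genes rose and none fell. Fold changes of low genes are damped by the added 0.5, and all are on that log2 scale.

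**Figure D1:**
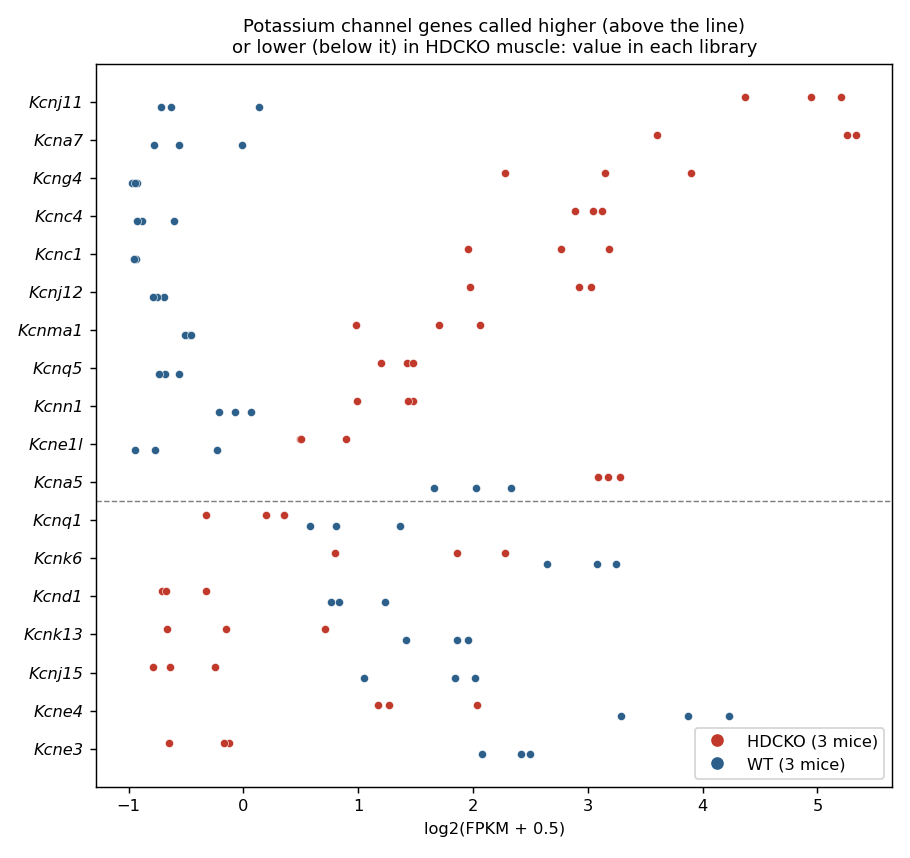
Level in log2(FPKM + 0.5) of 18 of the 20 channel genes called higher (above the dashed line) or lower (below it) in HDCKO muscle, with 1 point per mouse and HDCKO just above WT in each row. The groups do not overlap for these genes, and Kcnj11 runs from 20.2 to 36.3 FPKM in HDCKO mice against 0.110 to 0.597 FPKM in WT mice.

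**Figure D2:**
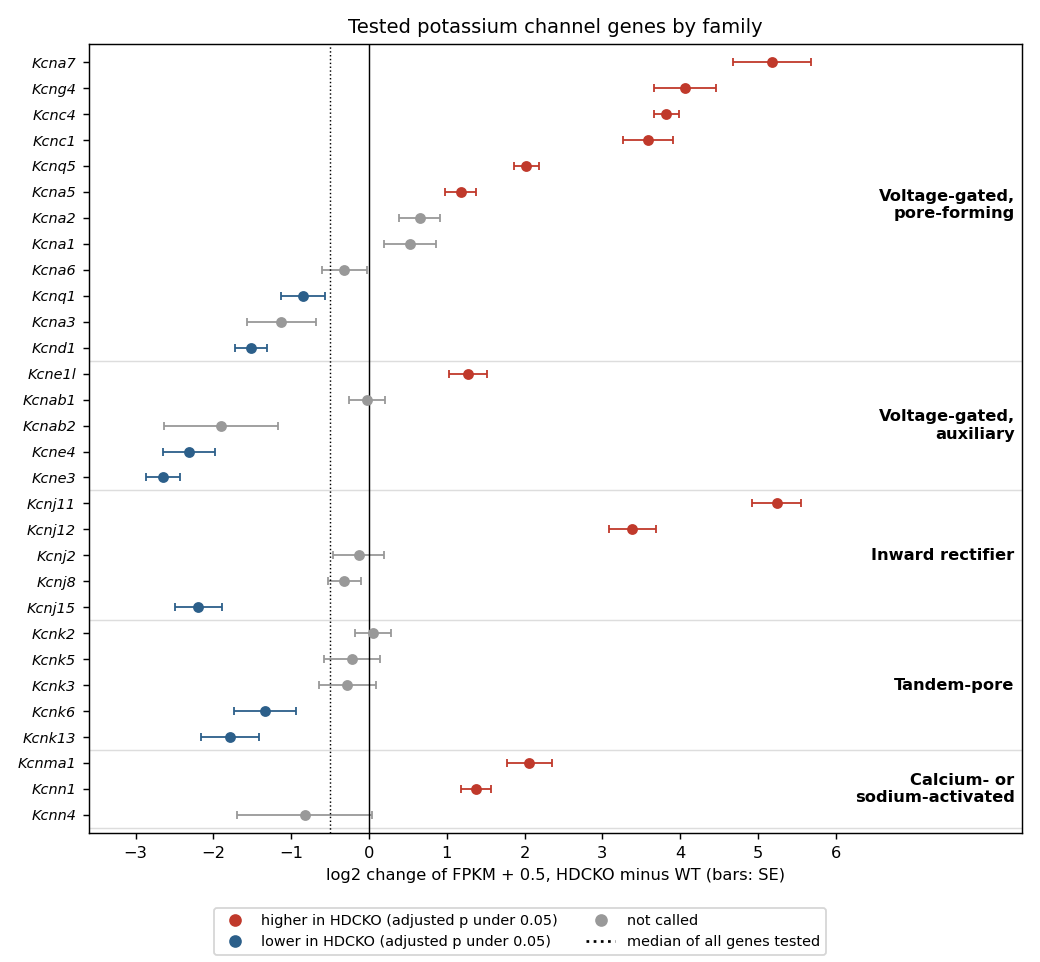
Log2 change, HDCKO minus WT, of 30 of the 32 tested channel genes by family, with bars of 1 standard error and a dotted line at the median of all genes tested. The voltage-gated pore genes spread from Kcnd1 at -1.51 to Kcna7 at 5.18. None of the 5 tested tandem-pore genes was called higher, where 17.8% of all genes tested were.

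Among the voltage-gated pore genes, Kcna7 rose; it is a member of the Shaker family known for its expression in skeletal muscle (chromosome 7, 45055077 to 45061072, plus strand). Its level was 39.9, 37.7 and 11.6 FPKM in HDCKO mice 1, 2 and 3, against 0.493, 0.177 and 0.085 FPKM in WT mice 1, 2 and 3. The lowest HDCKO mouse stood far above the highest WT mouse, and the log2 change was 5.18 (SE 0.50, adjusted p = 0.00092). Kcna5, another Shaker gene, was at 8.54, 9.24 and 8.01 FPKM in HDCKO mice, against 4.52, 3.56 and 2.66 FPKM in WT mice (chromosome 6, 126509514 to 126512375, minus strand). The groups were apart, with a log2 change of 1.18 (SE 0.20, adjusted p = 0.0058) and little spread among the HDCKO mice.

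Kcnc1 and Kcnc4 encode Shaw-type channels, which open at strongly depolarised potentials and repolarise cells fast. Kcnc4 (chromosome 3, 107345603 to 107367781, minus strand) was at 8.21, 6.89 and 7.73 FPKM in HDCKO mice, against 0.156, 0.042 and 0.026 FPKM in WT mice. Its HDCKO mice lay within a narrow range, and the log2 change was 3.82 (SE 0.16, adjusted p = 0.00015), with WT values that rest on an estimated 25, 8 and 5 fragments. Kcnc1 (chromosome 7, 46045674 to 46106392, plus strand) was at 8.57, 6.32 and 3.39 FPKM in HDCKO mice, against 0.016, 0.022 and 0.016 FPKM in WT mice. Its log2 change was 3.59 (SE 0.32, adjusted p = 0.00066), and the WT values rest on an estimated 5, 8 and 6 fragments.

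Kcng4 encodes a subunit that forms no channel alone and joins pore subunits of another family. Kcng4 (chromosome 8, 120349688 to 120362762, minus strand) was at 14.5, 8.38 and 4.37 FPKM in HDCKO mice, against 0.012, 0.025 and 0.020 FPKM in WT mice. The HDCKO values were spread but all far above WT, where an estimated 2, 5 and 4 fragments were seen, and the log2 change was 4.06 (SE 0.40, adjusted p = 0.00093).

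The Kcnq family carries slow currents that steady the membrane near rest, and its tested members moved in opposite directions. Kcnq5 (chromosome 1, 21468627 to 22032166, minus strand) was at 2.18, 1.80 and 2.28 FPKM in HDCKO mice, against 0.125, 0.10 and 0.178 FPKM in WT mice, a log2 change of 2.02 (SE 0.16, adjusted p = 0.00045). Its HDCKO mice were close together and well above WT. Kcnq1, best known from heart and epithelia, was at 0.297, 0.645 and 0.777 FPKM in HDCKO mice, against 0.995, 2.07 and 1.25 FPKM in WT mice (chromosome 7, 142660099 to 142980788, plus strand). Its groups were close without overlapping, and its fall of -0.84 (SE 0.28, adjusted p = 0.041) lost its call in 9 of 15 other settings, among them median-of-ratios scaling, at -0.53 and adjusted p = 0.11, and leaving out HDCKO 1, HDCKO 2 or any WT mouse. Kcnq1ot1, a noncoding RNA, is transcribed across Kcnq1 on the other strand and shares 834 exonic bases with it, 16.3% of its exons, and reads of the pair cannot be told apart unless the counting used strand, which no label states.

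Kcnd1 was the other voltage-gated pore gene that fell; its family carries A-type currents that inactivate quickly. It was at 0.113, 0.127 and 0.298 FPKM in HDCKO mice, against 1.29, 1.20 and 1.85 FPKM in WT mice (chromosome X, 7688528 to 7704519, plus strand). The highest HDCKO mouse was well under the lowest WT mouse, with a log2 change of -1.51 (SE 0.20, adjusted p = 0.0027). Of the 4 voltage-gated pore genes not called, Kcna3, the main voltage-gated channel of T cells, was at 0.023, 0.281 and 1.24 FPKM in HDCKO mice, against 1.13, 1.46 and 1.80 FPKM in WT mice (log2 change -1.13, adjusted p = 0.067). Its HDCKO mice were lowest in HDCKO 1 and highest in HDCKO 3, an order shared by the summed macrophage, T and B cell, endothelial and fibroblast markers. That order is common: of all genes called lower, 87.5% were lowest in HDCKO 1 and 91.4% highest in HDCKO 3. The T and B cell sums were 0.669, 99.9 and 241 FPKM in HDCKO mice and 2.14 to 4.20 FPKM in WT mice, where Kcna3 was at 1.13 to 1.80 FPKM. The part of T cells or of any other cells in the level of Kcna3 was not tested. Without HDCKO 3 the change of Kcna3 was -1.61 with adjusted p = 0.0030. The axonal genes Kcna1 and Kcna2 had log2 changes of 0.52 and 0.65, and without WT 2 both were called higher, at 0.86 and 0.93. Both were also called higher with sample weights. Kcna2 was called as well under median-of-ratios scaling, at 0.93 with adjusted p = 0.032. With fibre and mitochondrial genes left out of each library's total it was called at 0.88, with adjusted p = 0.033. Kcna6 had a log2 change of -0.32.

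The auxiliary subunits of voltage-gated channels bind pore subunits and alter their gating or trafficking. Kcne3, whose protein pairs with Kcnq1 in epithelia, was at 0.137, 0.415 and 0.392 FPKM in HDCKO mice, against 4.86, 5.15 and 3.73 FPKM in WT mice (chromosome 7, 99825401 to 99836141, plus strand). It had the most negative change of the tested channel genes, -2.65 (SE 0.21, adjusted p = 0.00052), with the groups far apart. Kcne4, an inhibitory subunit of several voltage-gated channels, was at 1.75, 1.91 and 3.59 FPKM in HDCKO mice, against 18.3, 14.2 and 9.28 FPKM in WT mice (chromosome 1, 78794475 to 78797745, plus strand). Its log2 change was -2.31 (SE 0.33, adjusted p = 0.0034), and the groups did not overlap.

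Kcne1l moved the other way. The deposited table describes it as a pseudogene but codes it as protein-coding, and its symbol was matched through a RefSeq synonym to Kcne5, whose protein is a subunit of the same family (chromosome X, 141087748 to 141089290, minus strand). It was at 0.904, 0.914 and 1.36 FPKM in HDCKO mice, against 0.0866, 0.0186 and 0.354 FPKM in WT mice, a log2 change of 1.28 (SE 0.25, adjusted p = 0.0081), and the WT values rest on an estimated 4, 1 and 20 fragments. Kcnab2, a cytoplasmic beta subunit of Shaker channels, was at 0.220, 1.80 and 5.27 FPKM in HDCKO mice, against 7.55, 5.29 and 10.2 FPKM in WT mice. HDCKO 3 came close to the lowest WT mouse, and the change of -1.90 (SE 0.74) missed the threshold at adjusted p = 0.063. Without HDCKO 3 it was -2.62, with adjusted p = 0.0079. Kcnab1, the other beta subunit tested, had a log2 change of -0.02.

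The inward rectifiers divided within pairs of close relatives. Kcnj11 encodes the ATP-sensitive pore subunit of skeletal muscle, heart and pancreatic beta cells, and Kcnj8 that of vascular smooth muscle and pericytes. Kcnj11 (chromosome 7, 45743377 to 45750188, minus strand) was at 36.3, 30.2 and 20.2 FPKM in HDCKO mice, against 0.597, 0.110 and 0.147 FPKM in WT mice. The groups were far apart, with a log2 change of 5.24 (SE 0.32, adjusted p = 0.00022), which differed from that of Kcna7 by less than its standard error. Kcnj8 was at 11.1, 10.2 and 13.1 FPKM in HDCKO mice, against 15.3, 17.6 and 10.9 FPKM in WT mice, with overlapping groups and a log2 change of -0.32 (adjusted p = 0.23). Within a library, Kcnj11 was 3.27, 2.97 and 1.54 times Kcnj8 in HDCKO mice, against 0.0391, 0.00626 and 0.0134 times in WT mice. The order of the pair was thus opposite in the groups, in 3 of 3 mice each, and the log2 ratio differed by 5.56 (2-sided exact permutation p = 0.1, the smallest that 3 against 3 allows). Since Kcnj11 was already called higher and Kcnj8 was not called, this p adds no support of its own.

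Kcnj12 and Kcnj2 encode the strong inward rectifiers that set the resting potential of muscle. Kcnj12 (chromosome 11, 60912944 to 60964099, plus strand) was at 7.63, 7.10 and 3.42 FPKM in HDCKO mice, against 0.120, 0.094 and 0.078 FPKM in WT mice, a log2 change of 3.38 (SE 0.30, adjusted p = 0.00067). Kcnj2 was at 10.1, 8.05 and 5.23 FPKM in HDCKO mice, against 8.83, 11.4 and 5.66 FPKM in WT mice, with overlapping groups and a log2 change of -0.13 (adjusted p = 0.73). Kcnj12 therefore came near Kcnj2 in HDCKO muscle, at 0.758, 0.882 and 0.653 times its level, and was at 0.0135, 0.00820 and 0.0138 times its level in WT muscle (exact permutation p = 0.1, the smallest possible). With the Kcnma1 and Kcnmb1 pair below, 3 such ratios were computed, and adjustment over them leaves each p at 0.1. Each ratio divides a gene already called higher by one not called or not tested, so it restates those levels and is no separate test. Kcnj15, an inward rectifier known from kidney and other epithelia, was at 0.081, 0.142 and 0.343 FPKM in HDCKO mice, against 3.55, 3.08 and 1.57 FPKM in WT mice (chromosome 16, 95058417 to 95101119, plus strand). It fell by 2.19 on the log2 scale (SE 0.30, adjusted p = 0.0030), and its groups were apart.

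The ATP-sensitive channel also needs a sulfonylurea receptor, encoded by Abcc9 in muscle and vessels and by Abcc8 in beta cells and neurons. Abcc9 was at 48.5, 38.2 and 35.1 FPKM in HDCKO mice, against 14.5, 14.3 and 11.5 FPKM in WT mice, a log2 change of 1.55 (SE 0.18, adjusted p = 0.0017). Its rise was less than that of Kcnj11, and unlike Kcnj8 it was called. Abcc8 stayed under the filter, at 0.629, 0.638 and 0.363 FPKM in HDCKO mice, against 0.054, 0.046 and 0.026 FPKM in WT mice.

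**Figure D3:**
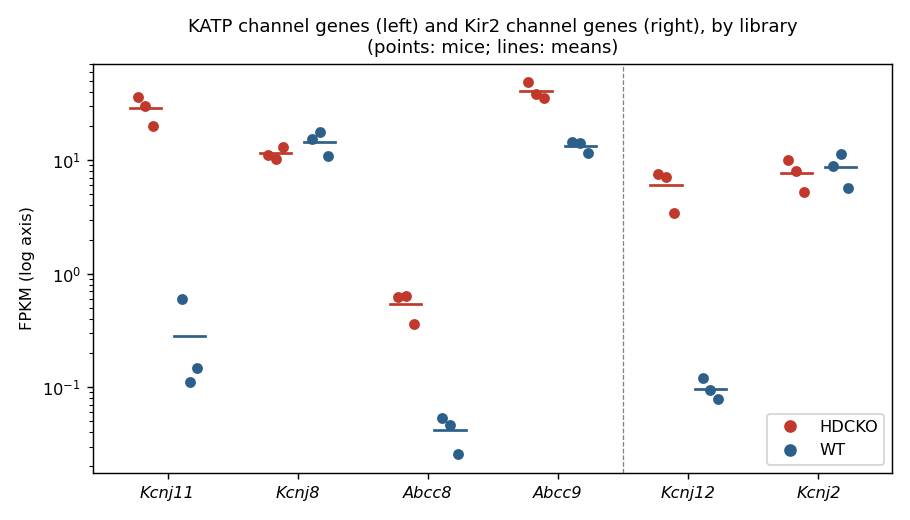
FPKM on a log axis of the ATP-sensitive channel genes (left of the dashed line) and of Kcnj12 and Kcnj2 (right of it), with 1 point per mouse, a line at each mean, and HDCKO left of WT. The groups share a range for Kcnj8 and Kcnj2 and are apart for Kcnj11, Kcnj12, Abcc8 and Abcc9.

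Tandem-pore channels carry background potassium currents, and of the 5 tested none rose and 2 fell. Of all genes tested 17.8% rose and 42.6% fell, and 5 genes are too few to set the family apart. Kcnk1, under the filter, was at 0.688, 0.454 and 0.307 FPKM in HDCKO mice, against 0.052, 0.218 and 0.074 FPKM in WT mice. A limma fit with no filter called Kcnk1 higher (adjusted p = 0.037). Kcnk13, known from microglia, was at 0.129, 0.401 and 1.13 FPKM in HDCKO mice, against 3.14, 2.16 and 3.39 FPKM in WT mice (chromosome 12, 99924948 to 100028942, plus strand). All HDCKO mice lay under the lowest WT mouse, and the log2 change was -1.78 (SE 0.37, adjusted p = 0.010). Kcnk6, which macrophages use as a potassium efflux path, was at 1.24, 3.13 and 4.36 FPKM in HDCKO mice, against 7.93, 5.76 and 8.96 FPKM in WT mice (chromosome 7, 28921346 to 28932035, minus strand). Its change of -1.34 (SE 0.40, adjusted p = 0.029) was not called under median-of-ratios scaling, at -0.89 and adjusted p = 0.052, nor without HDCKO 2 or without any one WT mouse, where the adjusted p was 0.054 to 0.092. Both genes were lowest in HDCKO 1 and highest in HDCKO 3, as were the summed macrophage, endothelial and fibroblast markers. Of all genes called lower, 87.5% were also lowest in HDCKO 1 and 91.4% highest in HDCKO 3. The part of any of these cells in Kcnk13 and Kcnk6 was not tested. Kcnk3, Kcnk5 and Kcnk2 were not called, with log2 changes of -0.28, -0.22 and 0.05.

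Among calcium-activated channels, Kcnma1 encodes the large-conductance pore and Kcnn1 a small-conductance one. Kcnma1 (chromosome 14, 23339499 to 24064559, minus strand) was at 3.68, 2.76 and 1.47 FPKM in HDCKO mice, against 0.220, 0.201 and 0.230 FPKM in WT mice, a log2 change of 2.06 (SE 0.29, adjusted p = 0.0031). Kcnn1 (chromosome 8, 71294693 to 71316409, minus strand) was at 2.29, 2.20 and 1.49 FPKM in HDCKO mice, against 0.452, 0.361 and 0.545 FPKM in WT mice, a log2 change of 1.38 (SE 0.19, adjusted p = 0.0031). Both had groups apart, and HDCKO 3 was the lowest HDCKO mouse for each. Kcnma1 stood at 17.9, 9.09 and 13.9 times Kcnmb1, the beta subunit of the smooth muscle channel, in HDCKO muscle, against 1.14, 1.02 and 0.980 times in WT muscle (exact permutation p = 0.1, the smallest possible). Kcnmb1 itself was under the filter, at 0.106 to 0.304 FPKM in HDCKO mice and 0.192 to 0.235 FPKM in WT mice. Its values rest on an estimated 18 to 40 fragments. Kcnn4, the intermediate-conductance channel of lymphocytes and macrophages, was at 0.339, 1.98 and 8.75 FPKM in HDCKO mice, against 5.46, 2.28 and 5.94 FPKM in WT mice. Its groups overlapped, with HDCKO 3 above every WT mouse, and the log2 change was -0.82 (SE 0.87, adjusted p = 0.43). Without HDCKO 3 it was -1.72, with adjusted p = 0.044.

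Summed over a library, the 92 genes reached 181, 162 and 134 FPKM in HDCKO mice, against 96.3, 92.1 and 81.9 FPKM in WT mice. The make-up of that sum differed more than its size. Voltage-gated pore genes held 49.2% ± 7.14 of it in HDCKO muscle and 16.1% ± 1.5 in WT muscle (SD, n = 3 each), whereas auxiliary subunits held 5.21% in HDCKO muscle and 31.6% in WT muscle. Tandem-pore genes held 4.53% in HDCKO muscle and 15.4% in WT muscle, and inward rectifiers held similar shares, 34.5% in HDCKO muscle and 29.7% in WT muscle. By mean level the leading genes of HDCKO muscle were Kcna7, Kcnj11, Kcnj8, Kcng4, Kcna5 and Kcnj2, and those of WT muscle were Kcnj8, Kcne4, Kcnj2, Kcnab2, Kcnk6 and Kcne3. Neighbours in these orders lie within the spread of the mice in several places, as Kcna7 (29.8 ± 15.7 FPKM) and Kcnj11 (28.9 ± 8.15 FPKM) do in HDCKO muscle (SD, n = 3). Kcna7 and Kcnj11 together made up 42.1, 41.8 and 23.8% of the sum in HDCKO mice, against 1.13, 0.312 and 0.283% in WT mice.

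**Figure D4:**
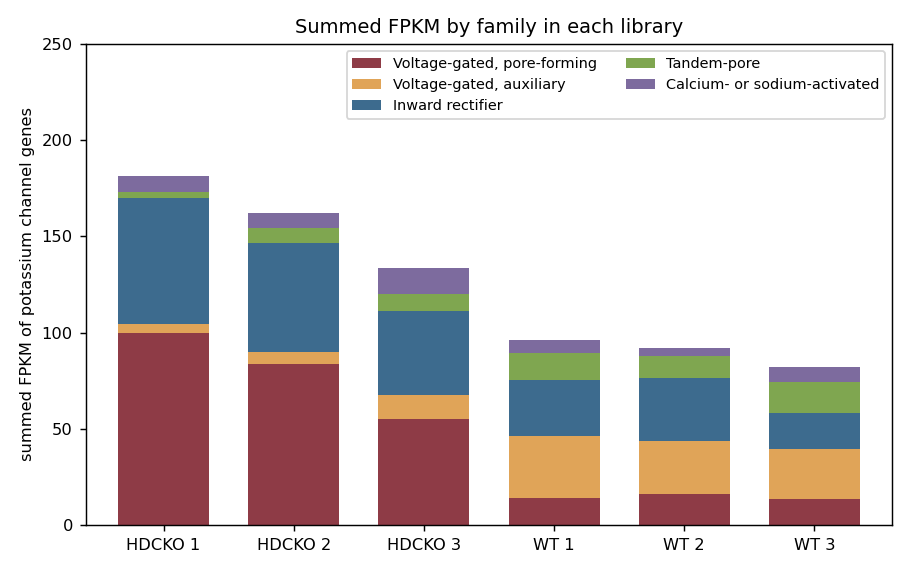
Summed FPKM of the channel genes in each mouse as bars stacked by family, HDCKO left of WT; the noncoding genes, too low to see, are left out. Voltage-gated pore genes sum to 99.5, 83.6 and 55.2 FPKM in HDCKO mice and to 13.9, 15.9 and 13.7 FPKM in WT mice, while auxiliary subunits are the larger in WT mice.

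The 3 HDCKO mice were not alike, and the channel genes showed this in a pattern that differed between genes. Of the 13 genes that rose, 8 were lowest in HDCKO 3, among them Kcnj11, Kcna7, Kcng4, Kcnc1 and Kcnj12, where fibre markers were also the lowest. Another 4, Kcnc4 and Kcnq5 among them, were lowest in HDCKO 2, and Kcne1l was lowest in HDCKO 1. Of all genes called higher, 73.6% were lowest in HDCKO 3. The ratio of the highest to the lowest HDCKO mouse was 3.43 for Kcna7 and 3.31 for Kcng4, but 1.19 for Kcnc4 and 1.15 for Kcna5. All 7 genes that fell were lowest in HDCKO 1, as were 87.5% of all genes called lower, and 6 of the 7 were highest in HDCKO 3, as were 91.4% of all genes called lower. The widest ranges were in genes not called, with ratios of 53.0 for Kcna3, 25.8 for Kcnn4 and 23.9 for Kcnab2.

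**Figure D5:**
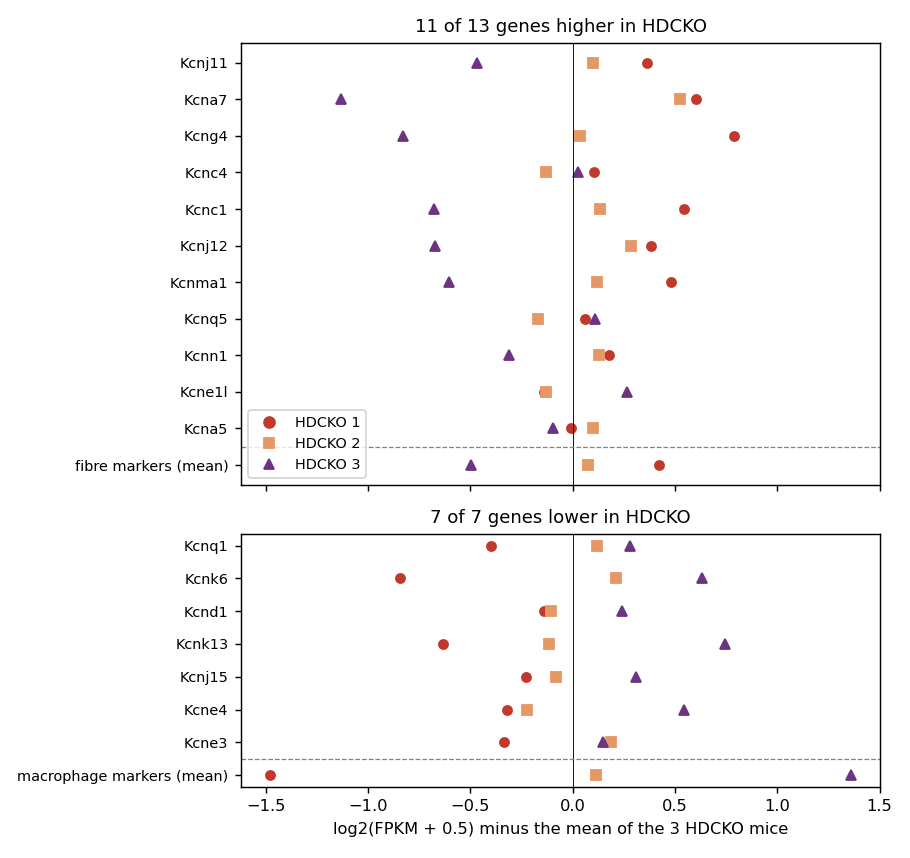
Deviation of each HDCKO mouse from the mean of the 3 HDCKO mice, in log2(FPKM + 0.5), for 11 of the 13 genes that rose and the 7 that fell, with the mean of the fibre or macrophage markers below each panel. Of the macrophage markers 5 of 10 fell. The neutrophil markers, of which 10 of 10 fell, are not drawn, and the part of either cell type was not tested. HDCKO 3 lies lowest for 8 of the 11 genes in the upper panel and HDCKO 1 lowest for all 7 in the lower panel.

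By position, 27 pairs of the 92 genes lie within 1000000 bases of each other in GRCm39, and in 3 pairs both genes were called. These 3 pairs are formed by Kcna7, Kcnj11 and Kcnc1 on chromosome 7, all of which rose. Kcna7 lies 682304 bases from Kcnj11, Kcnj11 lies 295485 bases from Kcnc1, and Kcna7 lies 984601 bases from Kcnc1. Most of the 27 pairs hold a gene under the filter, which could not be called. Of all genes tested 60.4% were called, and whether called genes lie together more than other neighbours was not tested. Abcc8, on the same strand 3758 bases from Kcnj11, stayed under the filter and was not tested. Its HDCKO mice were all above the WT mice, as for Kcnj11, with means of 0.543 FPKM in HDCKO muscle and 0.042 FPKM in WT muscle. Myod1, the muscle transcription factor 17147 bases from Kcnc1, was not called (log2 change 0.76). Other neighbours did not move together: Kcna5 rose while Kcna1, 104984 bases away, and Kcna6 were not called, and Kcnc4 rose while Kcna2 and Kcna3 on the same part of chromosome 3 were not. Kcnj8, not called, lies 15757 bases from Abcc9, which rose.

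The other 60 genes averaged under 0.5 FPKM and were not tested, and 35 of them were listed at 0 in at least 1 library. In 13 of them all HDCKO mice were above all WT mice, in 12 all were below, and in 35 the groups overlapped, where 8.87% of all genes under the filter had HDCKO above WT and 16.7% below. Kcnf1, a silent subunit like Kcng4, was at 0.483, 0.411 and 0.698 FPKM in HDCKO mice, against 0.0492, 0.0182 and 0.0424 FPKM in WT mice. Kcnn2 was at 0.401, 0.296 and 0.151 FPKM in HDCKO mice, against 0, 0.0109 and 0 FPKM in WT mice. Both genes were low in all mice and yet apart between groups. On the other side, Kcnh1, an ether-à-go-go channel, was at 0.0464, 0.135 and 0.0345 FPKM in HDCKO mice, against 0.813, 0.428 and 0.635 FPKM in WT mice. Kcnip3, a calcium-binding partner of Kcnd channels, was at 0.150, 0.0962 and 0.235 FPKM in HDCKO mice, against 0.507, 0.662 and 0.644 FPKM in WT mice. Kcnip3 and Kcnh1 thus stood below WT in 3 of 3 mice, as Kcnd1 did. A fit with no filter called 5 of the 60 higher, among them Kcnf1, Kcnn2, Kcnk1 and Kcna10, the last from an estimated 1 fragment in each HDCKO mouse and 0 in each WT mouse, and 5 lower, namely Kcnh1, Kcnip3, Kcnt2, Kcnd3 and Kcng2, where 4.75% of all genes under the filter were called higher and 7.73% lower. For genes apart in this way the 2-sided exact permutation p is 0.1, the smallest possible. The 3 noncoding genes Kcnd3os, Kcnmb4os2 and Kcnq1ot1 were among the 35 with overlapping groups. Kcnh2, the highest of the 60, averaged 0.484 FPKM over the 6 libraries and overlapped as well.

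Proteins that assemble or work with these channels were taken as a list of 20 genes, of which 11 were tested, 7 rose and 1 fell, with a median log2 change of 1.55. Of all genes tested, 17.8% rose and 42.6% fell. Tmem38a, a potassium-permeable channel of the muscle sarcoplasmic reticulum, averaged 354 ± 113 FPKM in HDCKO muscle and 5.17 ± 0.980 FPKM in WT muscle (SD, n = 3 each), a log2 change of 5.93. Lrrc38, a gamma subunit of the large-conductance channel, averaged 12.5 ± 6.91 FPKM in HDCKO muscle and 0.054 ± 0.057 FPKM in WT muscle, a log2 change of 4.43. Amigo1, a membrane protein that binds voltage-gated channels, averaged 7.05 ± 1.94 FPKM in HDCKO muscle and 1.24 ± 0.200 FPKM in WT muscle, a log2 change of 2.09. These 3 partners rose, as Kcnma1 did. Dlg4, a scaffold for Shaker channels at synapses, fell, with a log2 change of -1.35.

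A list of 22 other genes that set the membrane potential had 19 tested, of which 9 rose and 5 fell, with a median of 0.09. The shares over all genes tested were 17.8% higher and 42.6% lower. The muscle sodium channel Scn4a (log2 change 6.0), the muscle chloride channel Clcn1 (5.63) and the voltage sensor of contraction Cacna1s (6.54) all rose. Of the sodium pump's beta subunits, Atp1b1 (4.44) and Atp1b2 (4.69) rose and Atp1b3 (-1.5) fell. The pump's regulator Fxyd5 (-3.21) and the potassium chloride cotransporter Slc12a4 (-1.20) fell as well.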

How the data were processed

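RNA of 6 muscles, 1 library a mouse, was sequenced; per the labels' protocols it was total RNA extracted with TRIzol. The authors deposited FPKM per gene and sample. The submitters' processing notes name FastQC 0.11.9, HISAT2 2.1.0, STAR 2.7.11b, HTSeq 0.11.2, DESeq2 1.22.2 and the build GRCm39, without order. FPKM share 1 total in a library, so a large rise in some genes lowers the others' values. The table gives no counts, so fragments were estimated from the spacing of low values.

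Genes whose 6 libraries averaged 0.5 FPKM or more were tested on log2(FPKM + 0.5) with limma 3.58.1 (trend, R 4.3.3), HDCKO against WT, with Benjamini-Hochberg adjustment over all genes tested and a threshold of 0.05. The labels call the samples separate mice, so p-values measure the spread between mice. The test was checked on simulated data. Alternatives were another pseudocount, filter, scaling, sample weights, the replicate number as a block, and leaving out each library. The genes with full values were the 12 with the largest rise and all that fell, plus others chosen after their values were seen; a few genes are counted but not reported here. The members and all lists were chosen with earlier results of these data known.

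Positions come from GENCODE vM39 on GRCm39, and 91 of 92 symbols matched directly; where genes overlap on opposite strands their reads cannot be told apart, since no label states whether counting used strand.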

Additional observations from a re-analysis of the deposited data

How the results depend on the processing

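The 13 channel genes that rose kept their call in all settings that tested them; a filter of 1 FPKM left out Kcne1l and Kcnd1. Of the 7 that fell, 5 kept it, and Kcnq1 and Kcnk6 did not. Among the 12 not called, 8 were called in at least 1 other setting, and for each of them sample weights was such a setting. Leaving out 1 library gave 13 to 15 channel genes higher and 5 to 10 lower. Over all genes it gave 1785 to 2475 higher and 2502 to 7266 lower, against 2362 and 5658, and the number lower was 2502 without HDCKO 2, 3019 without WT 1, 3179 without WT 2 and 2813 without WT 3. Sample weights, whose fit did not fully converge, gave 17 channel genes higher and 11 lower, 3430 and 8241 of all genes, and turned Kcnk3 to 0.41. A pseudocount of 0.1 or 1 changed no direction, but moved Kcnc1 to 5.62 or 2.73, Kcng4 to 6.11 or 3.17 and Kcna7 to 6.39 or 4.45, so the order of genes by fold change depends on it. Scaling moved the background: the median log2 change of all genes was -0.50 as deposited, -0.04 under median-of-ratios scaling, -0.12 under quantile normalization and -0.13 when fibre and mitochondrial genes were left out of each library's total. Genes lower then numbered 3496 under median-of-ratios scaling and 3201 without those genes. The share of calls that were higher was 29.5% as deposited, 50.0% under median-of-ratios scaling, 43.8% under quantile normalization and 51.7% without those genes. Among genes under the filter, those with HDCKO above WT numbered 14 to 18 with 1 library left out and 17 under median-of-ratios scaling, and those below numbered 12 to 14 and 8. Low depth limits the WT values of Kcng4, Kcnc1, Kcnc4 and Kcne1l, and the cause of these changes was not tested.

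Whether the replicate numbers shared by HDCKO and WT mice mark a pairing cannot be settled here. Deviations of same-numbered mice correlated at 0.122, 0.067 and 0.138, each the highest value for its WT mouse. These correlations are weak, and HDCKO 2 correlated best with WT 1 (0.112). With the number as a block, 13 channel genes were higher and 9 lower, and 2081 and 5089 of all genes.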

Other observations

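Promoter sequence was looked at in the 250 bases before each start in the RefSeq table for GRCm38.p6, on both strands. Of the 92 channel genes 68 had an entry, as did 10 of the 13 that rose and 4 of the 7 that fell. These 14 called genes had 17 windows, and a gene counts if any of its windows matches. The shares of all windows below are of single windows, so the 2 are not like measures. CAGCTG, an E-box that muscle regulatory factors bind, was in 13% of all 32851 windows. It was in 3 of 10 genes that rose, Kcne1l, Kcng4 and Kcnn1, and in 1 of 4 that fell, Kcne4. The wider CANNTG, which includes CAGCTG, was in 66.2% of all windows, in 8 of 10 genes that rose and in 4 of 4 that fell. TGANTCA, the AP-1 pattern, was in 6.75% of all windows, in none of the 10 and in Kcne3 among the 4. GAGGAA, a pattern of the ETS factor PU.1, was in 23.3% of all windows, in 3 of 10 and in 2 of 4. TATAAA was in 12.4% of all windows and the MEF2 pattern in 2.92%, and neither was in a called gene. A match is a description of letters, and no match says only that these letters are not in the window.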
